A study of Mus musculus with 12 samples.

Results

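Voltage-gated calcium and sodium channel subunits were examined in mouse lung tumors and normal mouse lung. The genes were chosen by symbol: the pore-forming calcium subunits (Cacna1), the auxiliary calcium subunits alpha2delta (Cacna2d), beta (Cacnb) and gamma (Cacng), the pore-forming sodium subunits (Scn with an a ending) and the sodium beta subunits (Scn with a b ending). Of 40 mouse symbols of this form, 39 had a row among the 30399 genes of the table, and Scn2b was not analysed here. The rule uses symbols only, but it was chosen with earlier results of these data known.

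The tumors come from a mouse lung cancer model in which genes were mutated with CRISPR/Cas9, a nuclease that cuts DNA at a chosen site, delivered without a virus. Whole tissue was profiled by poly-A RNA sequencing in 5 samples labelled normal lung and 7 labelled tumor. The labels name the tissue only: strain, genotype, age, treatment and the genes mutated in each tumor are not given in the sources used here, nor is it given whether the normal lungs had received any agent. Sample titles carry a number, 159 for tumors 3 and 4 and 201 for tumors 5, 6 and 7. Some add Spanish words for lung (tumors 3 to 6 and normal lung 5) or trachea (tumors 1 and 7). The titles of tumors 3 and 4 differ only in a last letter, D or I. What the numbers stand for is not given, nor whether tumors came from separate animals, so p-values measure only the spread between these samples.

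Voltage-gated channels open when the membrane depolarizes. Sodium channels carry the fast upstroke of the action potential, and calcium channels turn depolarization into calcium entry that triggers secretion, contraction or transcription. The pore-forming subunit sets the ion and the gating, and the auxiliary subunits set trafficking and kinetics. Neuroendocrine cells are electrically excitable, and in patients with small cell lung carcinoma, a neuroendocrine lung cancer, antibodies against P/Q-type calcium channels can cause the Lambert-Eaton myasthenic syndrome.

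The pore-forming genes that the results turn on differ at a few codons that mark their class. Each stretch below runs 5′ to 3′ along the coding strand of GENCODE M21 transcripts and spans 33 bases. For sodium channels it lies in the first pore loop, and the capitals mark the codon of the residue known to set tetrodotoxin sensitivity, which is tyrosine or phenylalanine in the sensitive neuronal channels and serine in the resistant sensory-neuron channel. The stretches are shown for 3 neuronal pores that rose in tumors and for Scn10a as the resistant form.
Scn8a: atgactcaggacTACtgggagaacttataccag
Scn3a: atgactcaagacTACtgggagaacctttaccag
Scn2a: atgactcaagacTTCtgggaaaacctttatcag
Scn10a: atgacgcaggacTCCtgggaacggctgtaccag

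For calcium channels the stretch lies in the third pore loop, and the capitals mark the codon of the selectivity filter, glutamate in the high-voltage-activated channels and aspartate in the T-type channels. They are shown for the leading pore of normal lung (Cacna1c) and for the pores that rose most in tumors.
Cacna1c: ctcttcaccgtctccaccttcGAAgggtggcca
Cacna1a: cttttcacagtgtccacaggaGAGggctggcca
Cacna1b: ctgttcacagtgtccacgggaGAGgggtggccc
Cacna1g: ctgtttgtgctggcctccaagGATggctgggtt
Cacna1h: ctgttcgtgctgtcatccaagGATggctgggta

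The tetrodotoxin-position codon was TAC or TTC in Scn2a, Scn3a, Scn4a, Scn8a and Scn9a and TCC in Scn10a and Scn11a. No matching stretch was found in Scn7a. The filter codon was GAT in Cacna1g, Cacna1h and Cacna1i and GAA or GAG in the other 7 calcium pores.

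Most of these channel genes were higher in tumors. Of the 39 subunits, 23 were higher and 6 lower at an adjusted p under 0.05 in a limma fit over all genes, and 10 did not pass. Cacng2, Cacng3, Cacng5, Scn1a and Scn9a are among the 23 but were at or under the level of 3 reads in every normal lung and passed the filter on low values through the tumors alone. They had to be higher to be counted, so no p is given for them. Of the other 34 subunits, 18 were higher and 6 lower. Among the 23674 genes tested, 31.4% were higher and 30.1% lower by the same rule, 61.5% in all. The median log2 fold change of the 39 was 2.08, or 1.95 with the 5 genes that were near 0 in normal lung set at their lower bound, against 0.04 over all genes tested. Calcium channel genes accounted for 18 of the 23 that rose and 2 of the 6 that fell, out of 26 (median 2.57, or 2.27 with those at their bound). Cacng2, Cacng3 and Cacng5 are among the 18. Sodium channel genes divided more evenly, with 5 higher and 4 lower of 13 and a median of -0.29. These counts lie near the shares of all genes tested, and Scn1a and Scn9a, which had to be higher to be counted, are among the 5. All 7 tumors lay above all 5 normal lungs in 19 subunits and below them in 3, where 20.1% and 18.4% of all tested genes did so. Cacng2, Cacng3, Cacng5, Scn1a and Scn9a are among the 19, and being near 0 in normal lung they could separate only upward.

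All levels below are normalized counts, that is reads scaled for library depth but not for gene length, so they compare samples within a gene. Fold changes are log2 differences, tumor minus normal lung, of the value plus 1, with the standard error of the fit. Libraries held 11126432 to 17032234 assigned reads (normal lung) and 13093843 to 24217633 (tumor). At the shallowest library of each tissue 3 reads are worth 4.85 (normal lung) and 3.57 (tumor), and lower values are not ranked. Marker genes separated the labelled tissues: 9 of 9 neuroendocrine markers were higher in tumors (summed level 233 to 398 in normal lung, 31720 to 122412 in tumors) and 10 of 10 lung epithelial markers were lower (289355 to 506986 against 1518 to 4718). All 7 endothelial and all 7 leukocyte markers were lower too. In whole tissue, fewer cells of a type and less RNA per cell cannot be told apart. Cardiac muscle markers summed to 36163 in tumor 7 and to 262 to 4124 in every other library. Skeletal muscle markers summed to 1161 in normal lung 3, 1061 in tumor 2 and at most 259 elsewhere.

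**Figure D1:**
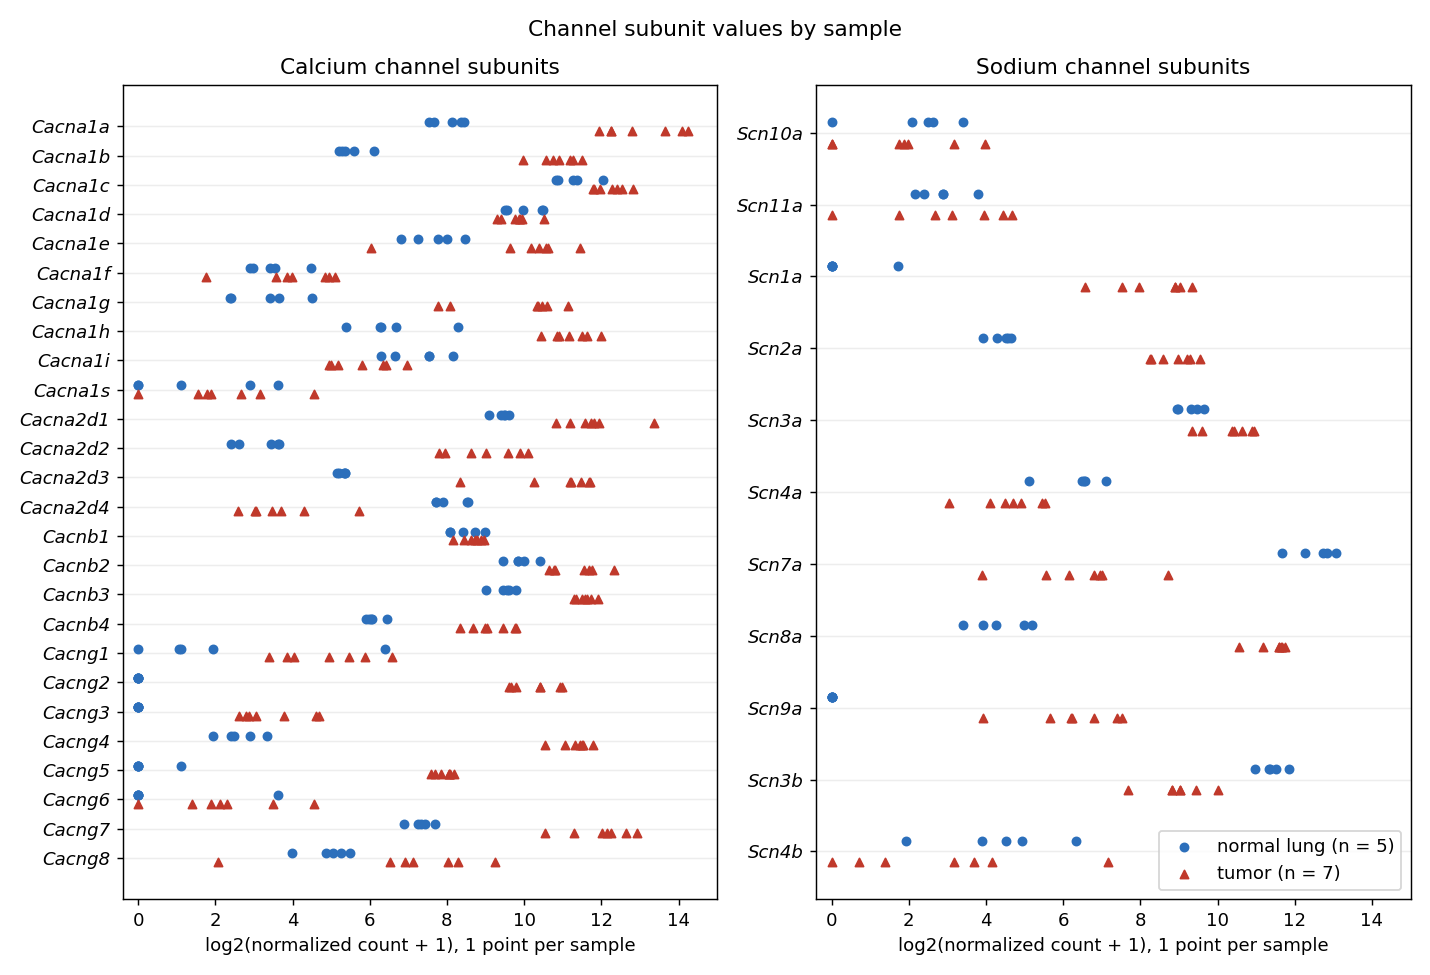
Log2 of the normalized count plus 1 (x axis) of the calcium (left) and sodium (right) channel subunits reported here (y axis), with 1 point per sample, blue circles for the 5 normal lungs and red triangles for the 7 tumors. In Cacng2, Cacng4, Cacna1b and Scn8a every tumor lies to the right of every normal lung, and in Scn7a, Scn3b and Cacna2d4 to the left.

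**Figure D2:**
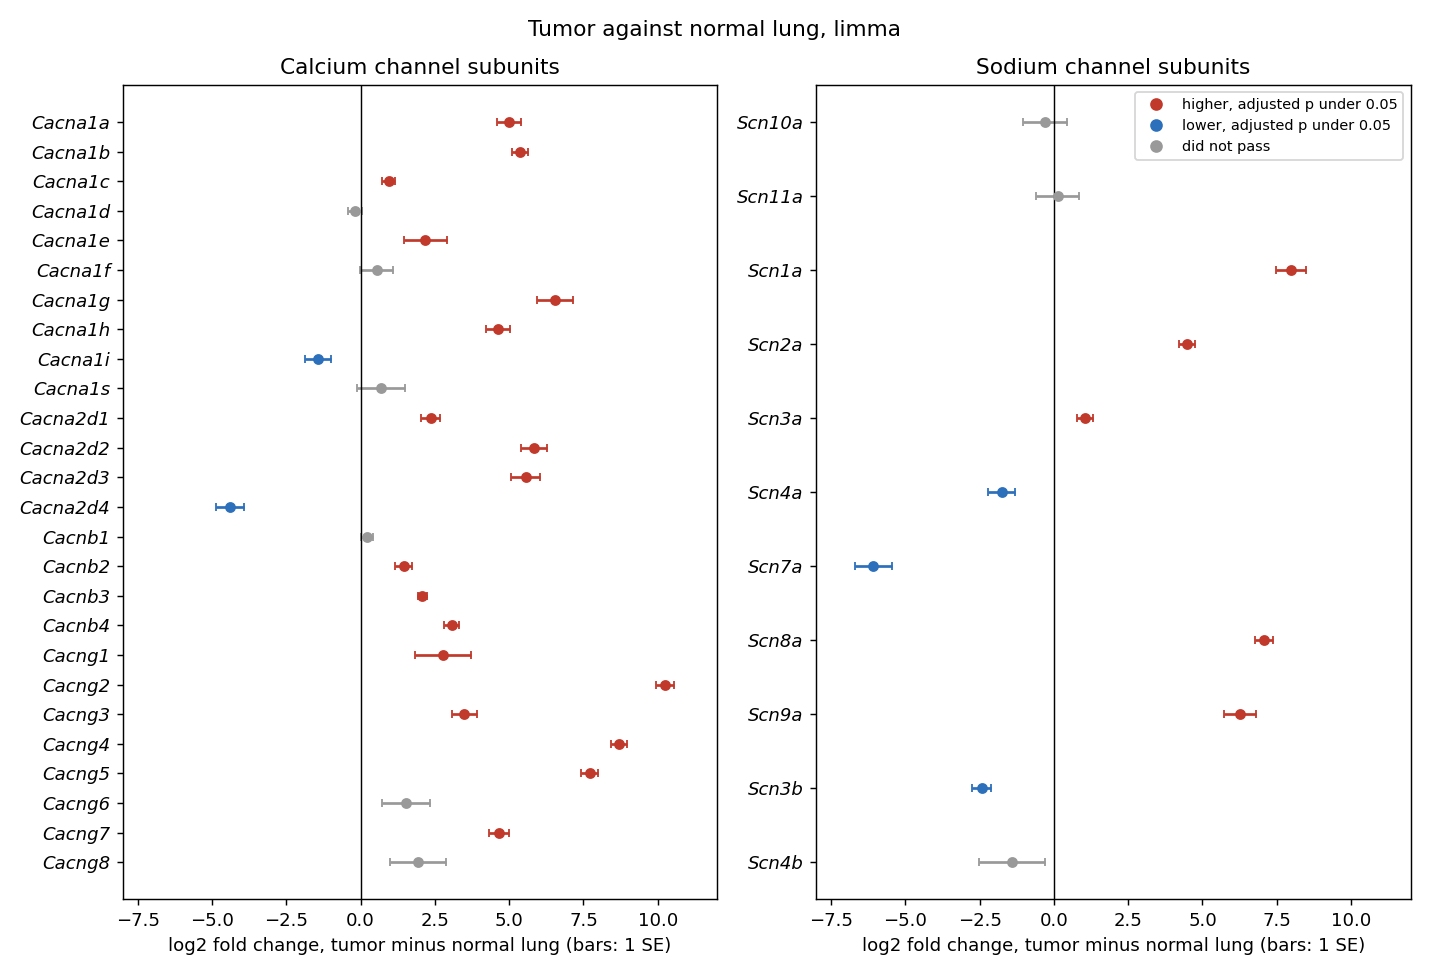
Log2 fold change (x axis, tumor minus normal lung, points with SE bars) of the channel subunits reported here (y axis), coloured by the call at an adjusted p under 0.05 in the fit over all genes. Cacng4, with a normal lung mean of only 5.44, stands at 8.70 and Scn7a at -6.07. The points of Cacng2, Cacng3, Cacng5, Scn1a and Scn9a depend on the added 1, because these genes were near 0 in normal lung, and are not ranked.

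The presynaptic calcium pores rose. Cacna1a, the P/Q-type pore that triggers transmitter release at most fast synapses, was at 346, 186, 278, 203 and 329 in normal lungs 1 to 5 and at 3931 to 19424 (median 7112) in tumors. Every tumor exceeded every normal lung, and tumors 4, 5 and 6 were the highest. On the log2 scale the difference was 5.0 ± 0.40 (SE; limma adjusted p = 2.17e-07). Cacna1b, the N-type pore that also drives transmitter and hormone release, was at 40.0, 47.3, 35.5, 38.1 and 67.8 in normal lungs and 1002 to 2900.1 (median 1900.3) in tumors. The groups lay far apart, with tumor 1 highest and tumor 7 lowest of the tumors. A fold change of 5.37 ± 0.26 (SE; limma adjusted p = 2.30e-09) resulted. Cacna1e, the R-type pore of neurons and endocrine cells, read 217, 254, 352, 152 and 112 in normal lungs and 64.3 to 2782 (median 1337) in tumors. Tumor 2, at 64.3, lay below all normal lungs, and the other 6 tumors lay above them. The fold change of 2.18 ± 0.73 (SE; limma adjusted p = 0.0184) was 2.82 without tumor 2. The call was lost when tumors sharing a title number were averaged (1.76, limma adjusted p = 0.104) and with the mean level of Y-linked genes as a covariate (2.21, limma adjusted p = 0.0801).

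Among the T-type pores, which open at low voltage and support rhythmic firing, 2 rose and 1 fell. Cacna1g was at 11.6, 4.30, 9.69, 4.23 and 21.8 in normal lungs and 218 to 2256 (median 1301) in tumors. Tumors 1 and 2, at 218 and 269, formed the low end, and the other 5 tumors were at 1287 or more (log2 fold change 6.54 ± 0.61 SE, limma adjusted p = 9.03e-07). Cacna1h was at 102, 77.4, 308, 40.9 and 75.9 in normal lungs and 1392 to 4074 (median 2289.6) in tumors. Normal lung 3 stood above the other lungs but well below every tumor, and the fold change was 4.63 ± 0.41 (SE; limma adjusted p = 5.32e-07). Cacna1i went the other way, from 284, 185, 100.1, 77.6 and 184 in normal lungs to 29.9 to 124 (median 54.8) in tumors. Tumors 1, 4 and 7 fell within the range of the normal lungs. Its fold change of -1.43 ± 0.43 (SE; limma adjusted p = 0.0109) was -0.97 (limma adjusted p = 0.165) with the Y-linked covariate.

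Of the 4 L-type pores, which carry the long-lasting calcium current of muscle and endocrine cells, 1 rose and 3 did not pass. Cacna1c, the widely expressed L-type pore, was at 2641, 1826, 2471, 1885 and 4236 in normal lungs and 3508 to 7194 (median 4930.4) in tumors. Normal lung 5 overlapped the tumors, which were otherwise higher, and the fold change was 0.94 ± 0.23 (SE; limma adjusted p = 0.00339). Cacna1d, the other widely expressed L-type pore, was at 1442, 1003, 720.3, 746 and 1413 in normal lungs and 624 to 1474 (median 932) in tumors. The ranges overlapped almost fully and the fold change of -0.18 ± 0.24 (SE; limma adjusted p = 0.531) did not pass. Cacna1f, known from the retina, was at 6.45 to 21.2 in normal lungs and 2.38 to 33.6 in tumors (log2 fold change 0.54 ± 0.56 SE, limma adjusted p = 0.411). Cacna1s, the skeletal muscle pore, was at 0 to 11.3 in normal lungs and 0 to 22.6 in tumors (log2 fold change 0.71 ± 0.81 SE, limma adjusted p = 0.465). Its highest values were 11.3 in normal lung 3 and 22.6 in tumor 2, the libraries with the most skeletal muscle marker signal.

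Dividing each value by the gene's merged exon length puts the pores on one scale. In normal lung the calcium pores summed to 191 to 381 normalized counts per kilobase, of which Cacna1c made up 44.1% on average, Cacna1d 30.6% and Cacna1a 8.56%. In tumors the sum was 1114 to 3026 per kilobase. Cacna1a then made up 44.7% on average (28.1% to 56.9%), followed by Cacna1h at 14.7%, Cacna1c at 13.8% and Cacna1b at 12.1%. Cacna1a was the leading calcium pore in each of the 7 tumors, and Cacna1c led in each of the 5 normal lungs. With the longest coding transcript as the length, Cacna1a made up 47.1% in tumors. Cacna1c then came next at 16.2%, ahead of Cacna1h at 12.8% and Cacna1b at 9.06%, so the order after Cacna1a depends on the length used.

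**Figure D3:**
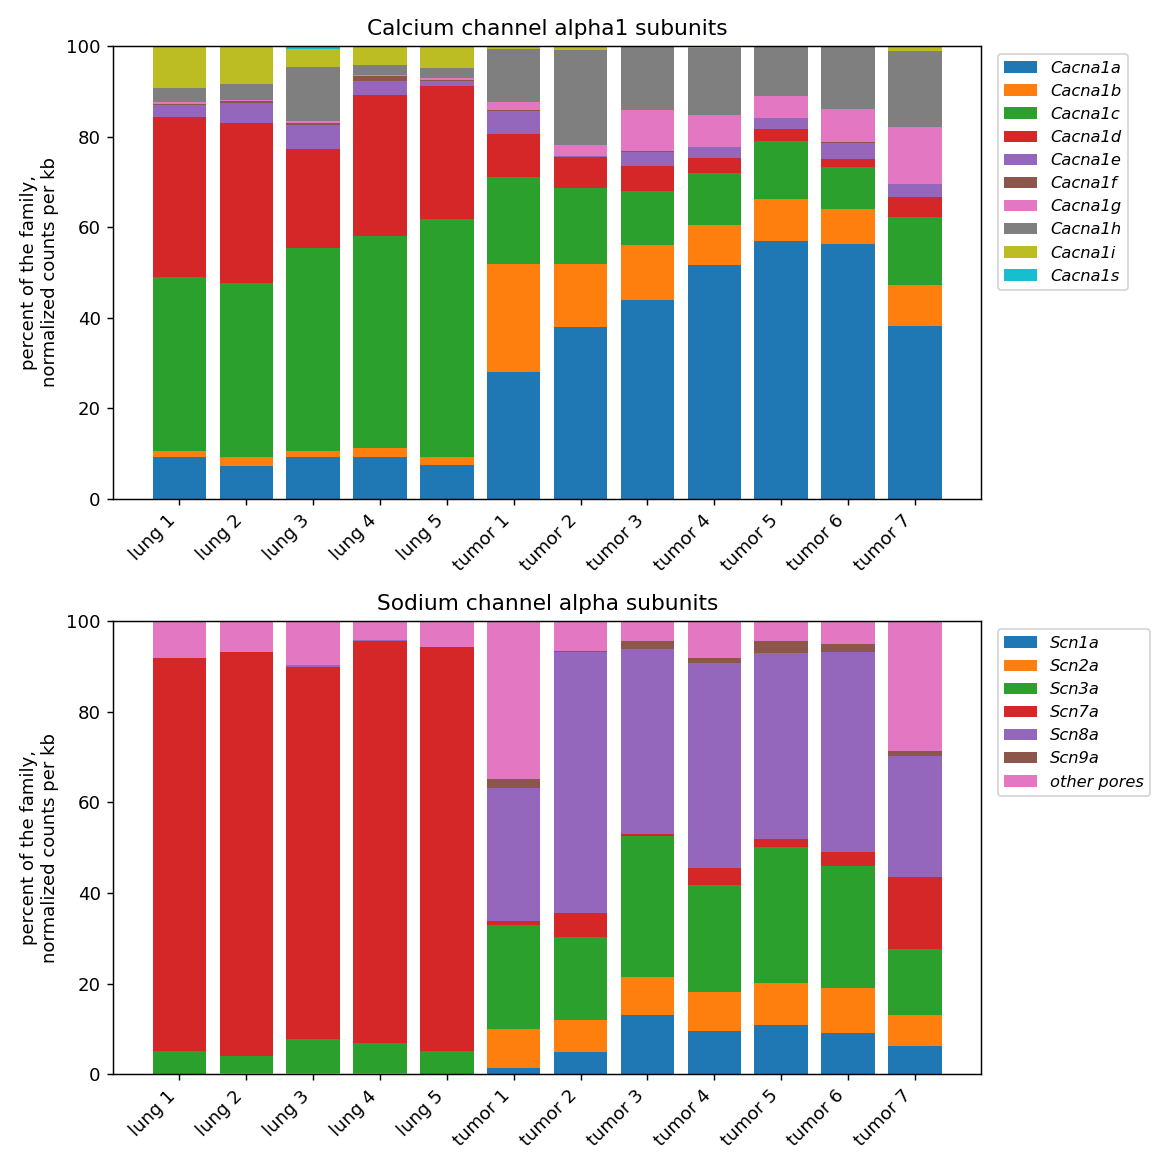
Share (y axis, percent of the summed normalized counts per kilobase, stacked) of the pore-forming calcium (top) and sodium (bottom) subunits, with 4 sodium pores summed as other pores, in every normal lung and tumor (x axis). Cacna1c and Cacna1d lead in normal lung and Cacna1a in tumors among calcium pores, and Scn7a at 82.2% to 89.1% in normal lung gives way to Scn8a and Scn3a among sodium pores.

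Of the 4 alpha2delta subunits, extracellular proteins that bring calcium channels to the surface and bind gabapentin-type drugs in the case of the first members, 3 rose and 1 fell. Among all genes tested, 31.4% were higher and 30.1% lower. Cacna2d1 was at 716, 679, 544, 721 and 778 in normal lungs and 1811 to 10475 (median 3386) in tumors. Tumor 5 was far above the other tumors, and all tumors exceeded all lungs (log2 fold change 2.36 ± 0.33 SE, limma adjusted p = 3.83e-05). Cacna2d2 was at 5.16, 4.30, 11.3, 9.87 and 11.5 in normal lungs and 221 to 1099 (median 512) in tumors. Tumors 1 and 2 were the highest and tumors 3 and 6 the lowest, all far above normal lung (log2 fold change 5.85 ± 0.44 SE, limma adjusted p = 1.12e-07). Cacna2d3 was at 40.0, 39.8, 35.5, 39.5 and 34.5 in normal lungs and 322 to 3328 (median 2353) in tumors. Tumor 2 was the lowest tumor by a wide gap, yet above every lung (log2 fold change 5.56 ± 0.49 SE, limma adjusted p = 4.78e-07). Cacna2d4, known as a partner of the retinal L-type channel, fell from 239, 375, 208, 364 and 209 in normal lungs to 4.96 to 51.9 (median 10.1) in tumors. Tumor 1 held the most, still under every normal lung (log2 fold change -4.39 ± 0.48 SE, limma adjusted p = 4.18e-06).

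The beta subunits bind the pore inside the cell and are needed for its surface expression. Of the 4, 3 rose, where 31.4% of all genes tested were higher. Cacnb2 was at 923, 1014, 703, 923 and 1351 in normal lungs and 1599 to 5108 (median 2981) in tumors. The groups came close, with normal lung 5 just below tumor 2 (log2 fold change 1.45 ± 0.28 SE, limma adjusted p = 6.08e-04). Cacnb3 was at 754, 516, 879, 701 and 774 in normal lungs and 2485 to 3840.1 (median 3028) in tumors. It was among the evenest of the subunits across tumors, with a highest-to-lowest ratio of 1.55 (log2 fold change 2.08 ± 0.15 SE, limma adjusted p = 1.02e-07). Cacnb4 was at 65.8, 62.4, 64.6, 59.2 and 86.2 in normal lungs and 323 to 887 (median 528) in tumors. All tumors lay above all lungs, tumor 7 being the lowest (log2 fold change 3.07 ± 0.26 SE, limma adjusted p = 3.70e-07). Cacnb1, the isoform of skeletal muscle and brain, was at 503, 268, 338, 268 and 419.6 in normal lungs and 284 to 495 (median 424) in tumors. The ranges overlapped and the fold change of 0.20 ± 0.20 (SE; limma adjusted p = 0.403) did not pass. Per kilobase Cacnb3 was the highest beta subunit in both tissues, at 181 on average in normal lung and 761 in tumors.

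Gamma subunits were among those that rose. Despite their name, Cacng2, Cacng3, Cacng4, Cacng5, Cacng7 and Cacng8 are known chiefly as auxiliary subunits of AMPA-type glutamate receptors. Of these 6, 5 were called higher, where 31.4% of all genes tested were. Cacng2, Cacng3 and Cacng5 are among the 5 and passed the filter through the tumors alone, so they could only be higher. Cacng2, also called stargazin, had no read in any of the 5 normal lungs and was at 774 to 2021 (median 1349) in tumors. Its tumor mean was at least 269-fold higher than the level of 3 reads per library in normal lung. Cacng4 was at 9.03, 4.30, 6.46, 2.82 and 4.60 in normal lungs and 1495 to 3503 (median 2788) in tumors. The mean rose about 480-fold, with a log2 fold change of 8.70 ± 0.27 (SE; limma adjusted p = 8.65e-11). The normal lung mean of Cacng4, 5.44, is close to the 4.85 that 3 reads are worth there, so the size of the rise is uncertain. Cacng5 had no read in normal lungs 1 to 4, was at 1.15 in normal lung 5 and was at 191 to 287 (median 265) in tumors. The tumors differed little from each other (highest-to-lowest ratio 1.501), and their mean was at least 50.6-fold above the 3-read level.

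Cacng7 was at 173, 152, 116.3, 161 and 205 in normal lungs and 1499.8 to 7804 (median 4528) in tumors. Tumor 2 was the highest and tumor 1 the lowest, all above normal lung (log2 fold change 4.66 ± 0.34 SE, limma adjusted p = 9.73e-08). Per kilobase Cacng7 was the most abundant of all 39 subunits in tumors, at 1859.7 on average against 66.1 in normal lung. Cacng8, which lies next to it, was at 43.8, 32.3, 37.1, 28.2 and 14.9 in normal lungs and at 3.17, 90.5, 137, 120.3, 311, 259 and 605 in tumors 1 to 7. Tumor 1 fell below every normal lung while the other 6 lay above them, and the fold change of 1.95 ± 0.94 (SE; limma adjusted p = 0.0875) did not pass. It passed at 2.75 without tumor 1 (limma adjusted p = 2.88e-04) and at 2.44 without the trachea-titled tumors (limma adjusted p = 2.03e-04). It also passed on the recovered reads of 11 samples, at 2.91 with DESeq2 (adjusted p = 4.66e-04) and 2.99 with edgeR (adjusted p = 0.0115), and was -0.050 with the Y-linked covariate. Cacng3 had no read in normal lung and stayed low in tumors, at 5.12 to 24.8 (at least 2.52-fold above the 3-read level).

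The gamma subunits known from muscle had their highest values in normal lung 3 and tumor 2. Cacng1, the skeletal muscle gamma subunit, was at 0, 1.08, 82.4, 2.82 and 1.15 in normal lungs and 9.43 to 94.1 in tumors. Its highest values were in normal lung 3 and tumor 2. Cacng1 also stood at 57.5 in tumor 3 and 43.1 in tumor 4, whose skeletal muscle marker sums were 39.7 and 88.0. The fold change of 2.78 ± 0.95 (SE; limma adjusted p = 0.0210) was 1.12 (adjusted p = 0.429) with edgeR on the recovered reads of 11 samples and 2.26 (limma adjusted p = 0.0636) without normal lung 1, and also missed the threshold with DESeq2, with the Y-linked covariate and without normal lung 2 or normal lung 5. Without normal lung 3 it was 3.85 and passed. Cacng6 was seen at 11.3 in normal lung 3, was without reads in the other normal lungs, and reached 22.6 in tumor 2. Its fold change of 1.53 ± 0.81 (SE; limma adjusted p = 0.115) did not pass, and was 1.54 (limma adjusted p = 0.0146) without normal lung 3, tumor 2 and tumor 7. It also passed without normal lung 3 alone (2.25) or tumor 1 alone (1.90). The part of muscle tissue in these values was not tested.

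Among sodium pores, the channels of central neurons rose and the main pore of normal lung fell. Scn8a, the pore that drives firing at axon initial segments and nodes, was at 18.1, 9.68, 30.7, 14.1 and 35.6 in normal lungs and 1499.9 to 3423 (median 3088) in tumors. Tumor 7 was at 1499.9 and the other 6 tumors between 2309 and 3423, and the fold change was 7.07 ± 0.31 (SE; limma adjusted p = 1.28e-09). Scn2a, the pore of excitatory neurons, was at 14.2, 22.6, 24.2, 18.3 and 21.8 in normal lungs and 303 to 743 (median 503) in tumors. Every tumor exceeded every lung, with tumors 2 and 7 lowest (log2 fold change 4.49 ± 0.27 SE, limma adjusted p = 1.64e-08). Scn1a, the pore of inhibitory interneurons, had no read in normal lungs 1 to 4, was at 2.30 in normal lung 5 and was at 94.3 to 647 (median 477) in tumors. Its tumor mean was at least 78.3-fold above the 3-read level.

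Scn9a, known for its role in pain-sensing neurons, had no read in normal lung and was at 14.3 to 183 (median 73.6) in tumors, tumor 2 being the lowest (at least 19.8-fold above the 3-read level). Scn3a, an embryonic neuronal pore, was already present in normal lung, at 703, 505, 496, 632 and 806, and was at 644 to 1973 (median 1387) in tumors. Tumors 2 and 7 fell within the range of normal lung and the other 5 lay above it (log2 fold change 1.05 ± 0.28 SE, limma adjusted p = 0.00527). The other sensory-neuron pores, Scn10a and Scn11a, did not pass: Scn10a ranged over 0 to 9.68 in normal lung and 0 to 14.7 in tumors, and Scn11a over 3.45 to 12.9 and 0 to 24.7. Of 4 peripheral neuron markers with a row, 3 were higher in tumors (Prph, Chat and Th), where 31.4% of all genes tested were. Chat and Th were at or under the 3-read level in every normal lung, so they could only be higher. Summed, the 4 markers reached 4.85 to 23.2 across normal lungs and 238 to 2207 across tumors. Of 5 Schwann cell markers, 2 were higher and 1 lower. Their sums overlapped, at 2155 to 2904 across normal lungs and 2076 to 5705 across tumors. What part nerve tissue had in the sodium pore values was not tested.

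Scn7a, a sodium-sensing relative of these channels that is not opened by voltage, fell most. It was at 7306, 6812, 3261, 4895 and 8575 in normal lungs and at 46.2, 127, 13.9, 122, 69.6, 111 and 420.1 in tumors 1 to 7. Even the lowest normal lung stood well above the highest tumor, tumor 7 (log2 fold change -6.07 ± 0.61 SE, limma adjusted p = 1.97e-06). The normal lung mean was 47.4 times the tumor mean. Scn4a, the skeletal muscle pore, fell from 91.6, 138, 88.8, 33.9 and 93.1 in normal lungs to 7.28 to 45.3 (median 25.1) in tumors. Normal lung 4 and tumors 2 and 7 overlapped (log2 fold change -1.76 ± 0.46 SE, limma adjusted p = 0.00485).

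The sodium pores summed to 338 to 667 normalized counts per kilobase in tumors and 541 to 1311 in normal lung, with overlapping ranges. Scn7a made up 87.2% of that sum on average in normal lung and 4.47% in tumors. Scn8a made up 40.7% in tumors (26.6% to 57.6%), Scn3a 23.9%, Scn2a 8.40% and Scn1a 7.87%. Scn8a was the leading sodium pore in 6 of the 7 tumors, all but tumor 1. The marked codon is TAC in Scn8a and Scn3a.

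The sodium beta subunits, cell-adhesion proteins that modulate the pore, gave no increase that passed. Scn3b, the most abundant beta gene in normal lung, was at 2582, 2605, 1998, 2899 and 3727 there and at 203 to 1029 (median 524) in tumors. All tumors were below all lungs (log2 fold change -2.43 ± 0.31 SE, limma adjusted p = 1.75e-05). Scn4b, a cardiac and neuronal beta subunit, ranged over 2.82 to 79.1 in normal lung and 0 to 142 in tumors (log2 fold change -1.42 ± 1.11 SE, limma adjusted p = 0.281), its highest value in tumor 7, the library with the most cardiac muscle marker signal. Without tumor 7 its fold change was -2.14 (limma adjusted p = 0.0498).

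**Figure D4:**
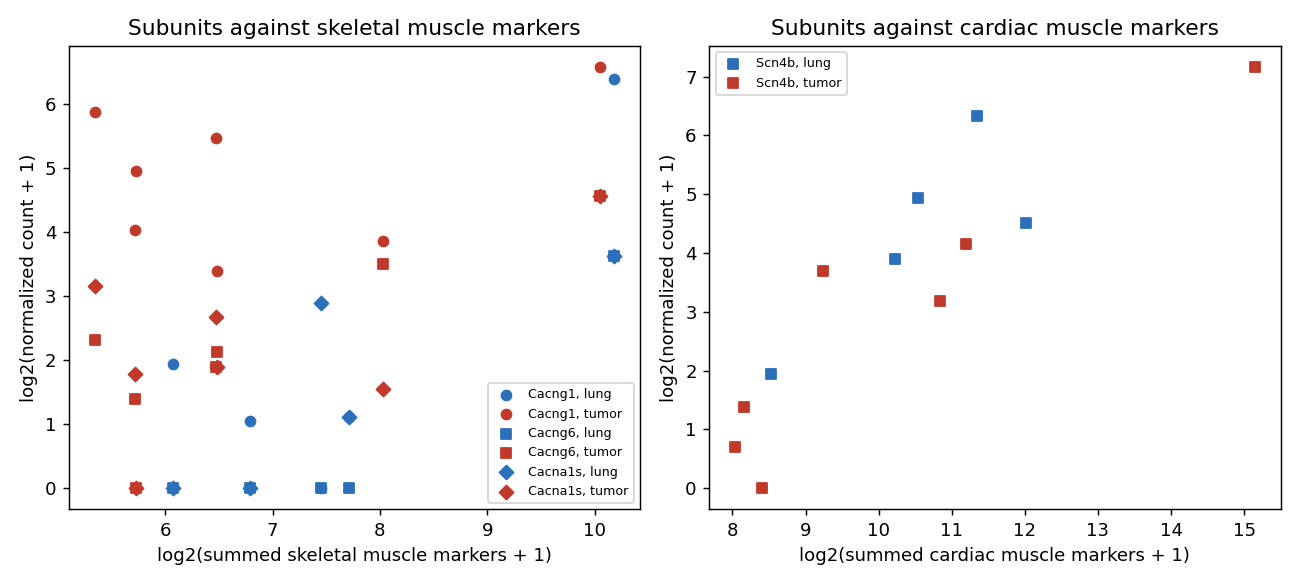
Channel subunits known from muscle (y axis, log2 of the normalized count plus 1) against the summed skeletal (left) or cardiac (right) muscle markers (x axis, log2 of the sum plus 1), 1 point per sample and gene, blue for normal lung and red for tumor. Normal lung 3 and tumor 2 hold the highest skeletal sums and the highest Cacng1 values (82.4 and 94.1). Tumor 3 holds the lowest skeletal sum (39.7) with Cacng1 at 57.5. Tumor 7 holds the highest cardiac sum (36163) and the highest Scn4b (142).

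The tumors were not alike in where the increases lay. Of the 23 subunits that rose, tumor 7 had the lowest tumor value in 9 and tumors 1 and 2 in 5 each, while tumor 5 had the highest value in 7 and tumor 6 in 5. Tumor 7 also had the lowest neuroendocrine marker sum (31720), the highest cardiac sum and the highest leukocyte sum among tumors (14328). Of the 6 subunits that fell, tumor 7 had the highest tumor value in 3, Cacna1i and Scn7a among them.

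Many genes that act on these channels rose as well. Of 47 partner genes with a row, 27 were higher and 9 lower in tumors, with a median log2 fold change of 1.62, where 31.4% and 30.1% of all genes tested were higher and lower. Of 8 active-zone scaffold genes in the list, whose products hold calcium channels at release sites, 7 rose, and Tspoap1 did not pass. Rims4 is counted in the 27 and in these 7, but was at or under the 3-read level in every normal lung. Like the subunits at that level, it is given no p. Rims1 was at 10.8 to 47.1 in normal lung and 537 to 2526 in tumors (log2 fold change 6.18 ± 0.43 SE, limma adjusted p = 5.06e-08). Rims2 (log2 fold change 6.03 ± 0.24 SE, limma adjusted p = 5.11e-10) and Rims3 (log2 fold change 4.51 ± 0.30 SE, limma adjusted p = 3.91e-08) were also higher. Rimbp2, which links Rims proteins to the pore, rose by 5.51 ± 0.45 (SE; limma adjusted p = 2.61e-07). Rims4 was at 0 to 2.82 in normal lung and 376 to 1611 in tumors, at least 177-fold higher than the 3-read level. Jph4, a neuronal junctophilin that tethers surface membrane to calcium stores, lay between 5.38 and 11.6 in normal lung and between 919 and 1727 in tumors (log2 fold change 7.07 ± 0.25 SE, limma adjusted p = 1.96e-10).

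Of the genes for calmodulin, the calcium sensor that binds the pore, Calm2 rose by 0.99 ± 0.17 (SE; limma adjusted p = 2.32e-04) and Calm3 did not pass (log2 fold change 0.22 ± 0.22 SE, limma adjusted p = 0.394). Ncs1, a neuronal calcium sensor, rose by 3.02 ± 0.20 (SE; limma adjusted p = 3.54e-08). The calmodulin-dependent kinases Camk2a (log2 fold change 3.32 ± 0.62 SE, limma adjusted p = 4.08e-04) and Camk2b (log2 fold change 2.24 ± 0.58 SE, limma adjusted p = 0.00436) rose, with tumor ranges of 132 to 3358 and 3175 to 34605 that overlapped normal lung. Of the other genes of this kinase, Camk2d fell, with all tumors below all normal lungs (log2 fold change -0.93 ± 0.16 SE, limma adjusted p = 2.13e-04), and Camk2g did not pass (log2 fold change 0.10 ± 0.15 SE, limma adjusted p = 0.576). The 4 small GTPases of the family that inhibits calcium channels went different ways. Rem1 fell from between 191 and 349 in normal lung to between 2.38 and 80.7 in tumors (log2 fold change -3.74 ± 0.61 SE, limma adjusted p = 1.39e-04), and Gem fell by less (log2 fold change -1.07 ± 0.35 SE, limma adjusted p = 0.0157). Rem2 rose from between 62.4 and 121 to between 254 and 1120.3, with all tumors above all normal lungs (log2 fold change 2.82 ± 0.32 SE, limma adjusted p = 5.36e-06). Rrad did not pass (log2 fold change -1.53 ± 0.71 SE, limma adjusted p = 0.0752), with 6 tumors below every normal lung and tumor 7, at 787, above them. Camk2d, Camk2g, Gem, Rem2 and Rrad were named after their values were seen.

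For sodium channels, 7 of 14 partners rose and 4 fell, against the same shares of all genes. Of the 4 intracellular fibroblast growth factor homologs, which bind the pore's tail, 3 rose and 1 fell. Fgf14 lay between 32.4 and 64.4 in normal lung and between 1653 and 5954 in tumors (log2 fold change 6.29 ± 0.29 SE, limma adjusted p = 1.87e-09). Fgf12 (log2 fold change 4.23 ± 0.37 SE, limma adjusted p = 5.21e-07) and Fgf13 (log2 fold change 3.43 ± 0.61 SE, limma adjusted p = 2.74e-04) rose too, and Fgf11, named here after its values were seen, fell (log2 fold change -1.21 ± 0.39 SE, limma adjusted p = 0.0168). Nfasc, the adhesion protein of axon initial segments, lay between 1.08 and 45.2 in normal lung and between 1862 and 4757 in tumors (log2 fold change 8.67 ± 0.67 SE, limma adjusted p = 1.40e-07), and the spectrin Sptbn4 rose by 4.44 ± 0.62 (SE; limma adjusted p = 3.59e-05). The ankyrins went opposite ways. Ank2, at no more than 289 in normal lung, rose to between 1383 and 4982 (log2 fold change 4.35 ± 0.32 SE, limma adjusted p = 9.59e-08), and Ank3, whose product anchors sodium channels, fell from between 4589 and 7379 to between 979 and 4180.2 (log2 fold change -1.12 ± 0.31 SE, limma adjusted p = 0.00670). S100a10, which brings the Scn10a channel to the surface, fell from between 1907 and 4073 to between 25.8 and 1152 (log2 fold change -3.98 ± 0.66 SE, limma adjusted p = 1.68e-04).

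**Figure D5:**
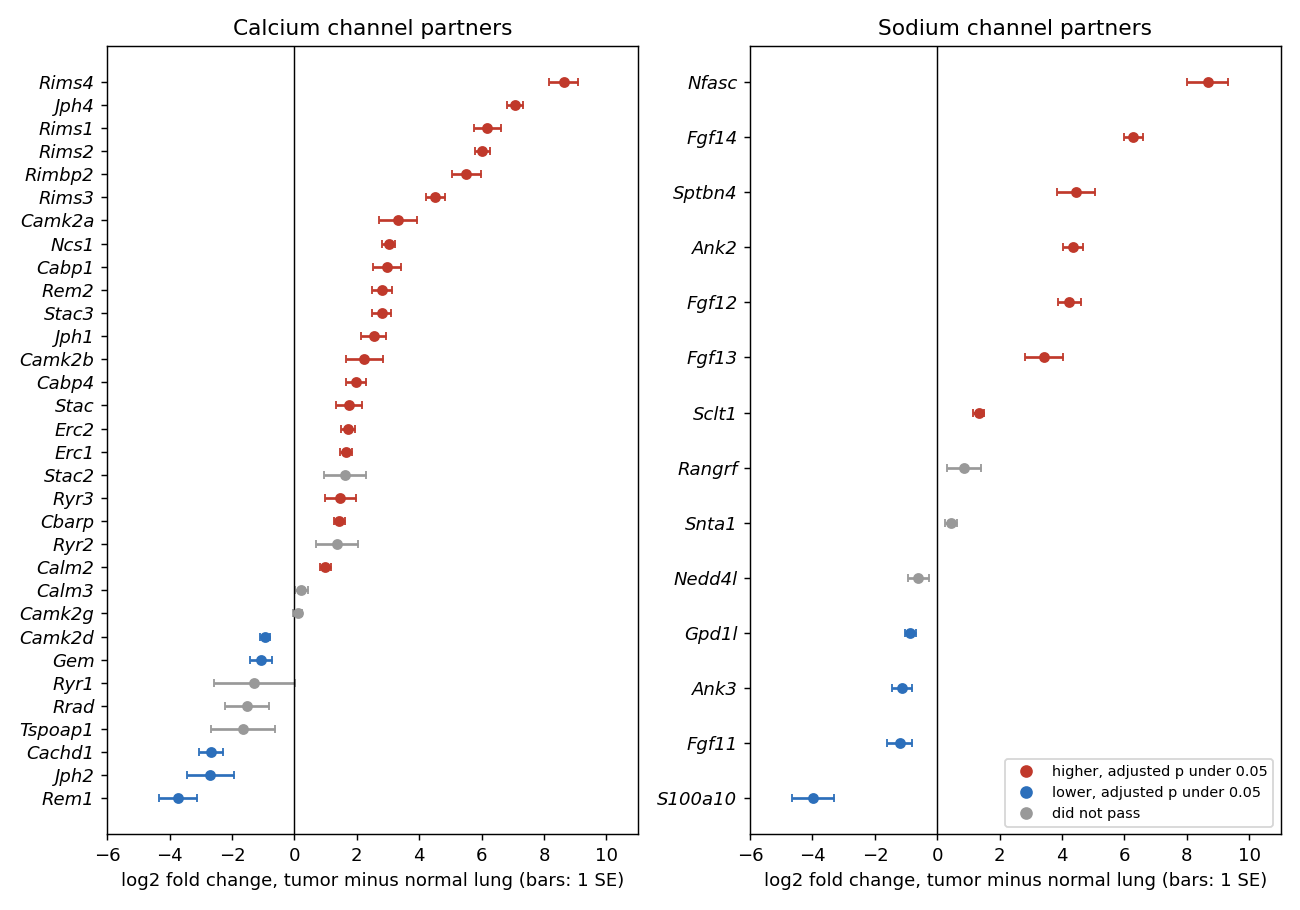
Log2 fold change (x axis, tumor minus normal lung, points with SE bars) of the partner genes of calcium and sodium channels reported here (y axis), coloured by the call at an adjusted p under 0.05 over all genes. In all 27 partner genes are higher and 9 lower, with Nfasc at 8.67 and S100a10 at -3.98. The point of Rims4, under 3 reads in normal lung, depends on the added 1.

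Neighbouring genes did not all move together. On mouse chromosome 2 the annotation places Scn3a, Scn2a, Scn1a, Scn9a and Scn7a in that order among the subunits, and the first 4 were higher in tumors while Scn7a fell. On chromosome 7 Cacng7 rose beside Cacng8 and Cacng6, which did not pass with all samples in the limma fit but passed without tumor 1. On chromosome 9 neither Scn10a nor its neighbour Scn11a passed, and on chromosome 11 the neighbours Cacng1, Cacng4 and Cacng5 were all called higher. How reads that match more than 1 of these related sodium channel genes were counted is not given. Exon bases shared with another listed gene covered 16.0% of Cacnb4 (A430018G15Rik), 5.86% of Cacng2 (A730060N03Rik), 4.67% of Cacna1d (Chdh) and under 2% of Cacna1h, Cacnb1 and Scn9a, whose counts are uncertain to that extent because use of the strand is not given.

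RefSeq promoter sequence was matched by symbol for 30 of the 40 symbols. The palindrome CAGCTG, an E-box sequence of the kind that basic helix-loop-helix transcription factors bind, and the same on both strands, was present in the 250 bases before at least 1 start site in 10 of the 30 (33.3%), against 14.7% of 27025 genes. By start site it was 11 of 41 (26.8%), against 13.0% of 32851. It was present in 6 of 17 subunits called higher (35.3%) and in 1 of 3 called lower (33.3%). Below are the 250 bases before the start site of Scn7a, the gene that fell most, which touch no annotated gene in the RefSeq table. They lie on the minus strand of build GRCm38.p6 at chr2:66784911-66785160, with CAGCTG in capitals, starting 150 bases before the start site.
Scn7a: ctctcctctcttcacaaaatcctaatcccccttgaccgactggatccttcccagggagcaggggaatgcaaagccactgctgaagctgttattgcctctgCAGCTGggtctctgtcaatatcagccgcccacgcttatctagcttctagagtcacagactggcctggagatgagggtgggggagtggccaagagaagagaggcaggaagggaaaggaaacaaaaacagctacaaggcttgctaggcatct
The match is a description of the letters only.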

How the data were processed

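Poly-A RNA of 5 normal lungs and 7 tumors was sequenced as paired ends. The submitters' processing notes name featureCounts, DESeq2 and the build GRCm39, without their roles. Versions, aligner, annotation and use of the strand are not given in the sources used here. The deposited values are a normalized count signal, not scaled by gene length, as judged from the values: in each column 100% of values were whole multiples of 1 read (tolerance 0.001). Count tests used the whole reads of 11 columns, all but that of tumor 3. No column lacked a sample (0 unmapped).

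The design had assumed edgeR for counts or limma for normalized values, and the normalized form applied. The 23674 genes averaging 1 or more entered limma 3.58.1 (R 4.3.3) as log2(value + 1), with a mean-variance trend and Benjamini-Hochberg adjustment, called at an adjusted p under 0.05. All 39 members passed the filter, 5 of them through the tumors alone. On the recovered reads of 11 samples edgeR 4.0.16 called 7690 genes higher and 5530 lower, and DESeq2 1.42.0 called 7479 and 6048. On simulated data for 23390 genes in this comparison, 200 of 200 genes changed by 2 log2 units were recovered and 10 of 210 calls (4.76%) were false. The changed genes were drawn from those with higher means, with the same dispersion for every gene and independent samples. Far fewer genes were changed than were called in the real data, so these rates need not hold for the calls here.

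Symbols, exon lengths and transcripts came from GENCODE M21, which named 29982 of 30399 identifiers. Its build differs from the authors', so none of its coordinates are given. The promoter window is placed on the build of the RefSeq table it came from, GRCm38.p6, and was not compared with the authors' GRCm39. Values are printed for called members with a mean of at least 50 in the higher group and for members with overlapping groups and a mean of at least 200, and the others by range. Single values that the text turns on were named after they were seen. Partner genes are named if called with a log2 change of 3 or more either way, or among the 5 highest of the list in either group. Some genes and sequences that meet these rules are counted but not reported here. The members and lists were chosen with earlier results of these data known. Depth intervals cover counting error only.

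Alternatives covered a pseudocount of 0.1, filters on low values, quantile normalization, equal totals, tumors of a shared title number averaged or correlated, tumors titled for the trachea left out, a covariate of Y-linked genes, edgeR, DESeq2 and leaving out each sample. Leaving out the libraries high in muscle markers and the use of transcript length were added after seeing the data.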

Additional observations from a re-analysis of the deposited data

Results flagged for a closer look

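In 7 of 75 comparisons of a member within a group, a sample stood apart from the rest by Dixon's criterion, where chance alone gives about 1 in 20, or 3.75. The criterion flags any group in which only 1 sample has reads, as for Cacng5, Scn1a and Cacng6 in normal lung. The chance rate does not hold for these, so the 7 are not read as an excess. Values are log2 of the normalized count plus 1. Tumor 2 was low in Cacna1e, the R-type pore (6.03, next tumor 9.64), and in Cacna2d3 (8.33, next tumor 10.26). Tumor 1 was low in Cacng8 (2.06, next tumor 6.52). Normal lung 5 was high in Cacnb4 (6.45, next lung 6.06), and was the only normal lung with reads of Cacng5 (1.10) and of Scn1a (1.72), both under the 3-read level. Normal lung 3 was the only normal lung with reads of Cacng6 (3.62), and it also had the highest skeletal muscle marker sum of the normal lungs (1161), whose part in that value was not tested.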

How the results depend on the processing

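Of the 39 subunits, 27 kept their call and direction in each of 24 alternatives in which they were tested, and 12 changed in at least 1. The count of subunits higher in tumor stayed between 21 and 25 and that of subunits lower between 5 and 7. Leaving out each sample in turn gave 22 to 25 and 6 to 7. Among the subunits reported, directions turned only in some that did not pass: with Y-linked genes as a covariate for Cacna1d (0.30), Cacna1s (-0.95), Cacng6 (-0.52) and Cacng8 (-0.050), with equal totals for Cacna1d (0.024), with DESeq2 for Scn10a (0.055) and Scn4b (0.057), with edgeR for Scn10a (0.13) and Scn4b (0.19), and for Scn11a with a pseudocount of 0.1 (-0.28) or without the trachea-titled tumors (-0.26). Leaving out 1 sample at a time moved Scn10a between -0.82 and 0.031 and Scn11a between -0.17 and 0.61. Among called subunits, the Y-linked covariate gave 5.75 for Cacna1g, 3.68 for Cacna1h and -3.52 for Cacna2d4, edgeR gave -5.27 for Scn7a, and leaving out normal lung 3, tumor 2 and tumor 7 gave -6.85 for it. The cause was not tested. Equal totals moved the median of all genes by 0.19, edgeR by 0.17 and DESeq2 by 0.10 on the log2 scale. No paired analysis was possible because the groups share no replicate number in the labels. Levels under 3 reads in some libraries limit Cacna1f, Cacna1s, Cacng1, Cacng4, Cacng6, Scn10a, Scn11a and Scn4b. For Cacng4 this is normal lung 4 only, and for Cacna1f tumor 2 only.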
